A study of Homo sapiens with 18 samples.

Results

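A set of 10 genes of cadherins and mesenchymal transcription factors was followed in human brain tumor cells. Spheroidal aggregates of a pair of lines were held in a direct current electrical field (dcEF). The cadherins were CDH2, CDH4, CDH6 and CDH11, and the transcription factors were SNAI1, SNAI2, TWIST1, TWIST2, ZEB1 and ZEB2. The 10 genes were chosen by name, and all were found among the 32490 gene names of the transcript table. They were covered there by 74 of 145326 transcripts. Bulk RNA-SEQ was available for 18 samples, 3 for each of 6 groups: U87 mg, a glioblastoma line, and DAOY, a desmoplastic cerebellar medulloblastoma line, each at 0 h, 2 h or 8 h of continuous dcEF at 250 V/m. In every group the aggregates were held for 24 h in a gel of equal parts culture medium and growth-factor-reduced Matrigel before the field was applied, and 3 channels were pooled into each sample. The 0 h groups were collected without a field, and channels held for 2 h or 8 h without a field were not analysed here, so that the field and the added time in the channel cannot be told apart. Each tumor type was represented by a single established line, so differences between the groups of DAOY and U87 mg are differences between these lines.

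Classical cadherins are membrane proteins that join neighbouring cells by binding cadherins on the next cell, with their inner ends tied to actin through catenins. N-cadherin (CDH2), R-cadherin (CDH4) and OB-cadherin (CDH11) are known from neural or mesenchymal cells, whereas E-cadherin (CDH1) belongs to epithelia. The set also holds K-cadherin (CDH6). The zinc finger factors SNAI1 and SNAI2, the basic helix-loop-helix factors TWIST1 and TWIST2, and the zinc finger and homeobox factors ZEB1 and ZEB2 are known for driving epithelial-mesenchymal transition, in which CDH1 is repressed and CDH2 is often gained. SNAI and ZEB factors bind short E-box sequences such as CAGGTG, read as CACCTG on the other strand. In glioblastoma the same factors are studied for their link with invasion, since these cells have little CDH1 to lose.

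The 18 libraries held between 8341976 and 15610886 estimated counts, of which mitochondrial genes took 2.83% to 8.44%. The libraries of DAOY at 0 h were the least alike, each with a mean correlation of 0.958 to 0.966 with the other libraries of its group, against 0.974 or more in the other groups, and replicate 0 of DAOY at 0 h stood apart for several of the genes below. Of 25 cell type markers, 24 were in the table. In U87 mg the glial markers GFAP, OLIG2, S100B and SOX2 were at most 3.11, 1.40, 0.173 and 0.0858 TPM (transcripts scaled to a fixed total per library), and the neural stem cell marker NES was at 5.58 to 9.25 TPM. DAOY held more SOX2, at 2.93 to 6.92 TPM, and less NES, at most 0.715 TPM. In DAOY the hedgehog-group markers PTCH1 and SFRP1 were at 6.07 to 11.6 and 19.0 to 28.2 TPM, while GLI1 was at most 0.932 TPM. The granule cell marker BARHL1 was listed at 0 in every DAOY library. In U87 mg, PTCH1 and SFRP1 were lower, at most 4.98 and 0.109 TPM. The markers GLI1 and GLI2 were higher there, at 1.51 to 7.2 and 2.2 to 5.03 TPM, with GLI2 at 0.817 to 1.81 in DAOY. The marker OTX2 was at 1.15 to 2.44 TPM in DAOY and listed at 0 in every U87 mg library. The marker ZIC1 was at least 2.53 TPM in U87 mg and 8.28 in DAOY. The blood cell marker PTPRC and the neuronal marker RBFOX3 were at most 0.663 and 0.303 TPM in any library, but the neural marker TUBB3 was at 17.4 to 54.6 TPM in U87 mg and 6.38 to 17.7 in DAOY. The endothelial marker PECAM1 was at 5.46 to 12.9 TPM in DAOY and 0.598 to 2.30 in U87 mg, but VWF was at most 0.719 TPM.

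In GENCODE 29 (GRCh38), CDH2 spans chr18:27950966-28177446, CDH11 chr16:64943753-65126112, TWIST1 chr7:19020991-19117672 and ZEB2 chr2:144364364-144524583, all on the minus strand, and CDH4 spans chr20:61252426-61940617, CDH6 chr5:31193750-31329146, SNAI1 chr20:49982999-49988886, TWIST2 chr2:238848032-238910543 and ZEB1 chr10:31318495-31529814, all on the plus strand. The sequences before the start sites were read for the E-box that SNAI and ZEB factors bind, since ZEB1, ZEB2 and CDH2 are themselves part of this circuit. RefSeq windows (GRCh38.p14) of the 250 bases before a start were found for 5 of the 10 genes, 13 windows in all: CDH2, CDH4, TWIST2, ZEB1 and ZEB2. CAGGTG or CACCTG was present in 3 of these 13 windows, those of ZEB1 (2 windows, 3 boxes) and CDH4 (1 box). Over the 35116 RefSeq windows of all genes, 17.5% held the box on either strand, and 61.8% held the wider motif CANNTG, which includes it. The boxes of ZEB1 and CDH4 are shown with up to 12 bases on each side and the box in capitals, each on the plus strand. The first ZEB1 site, at chr10:31318348-31318377, ended 52 bases before its start, and the other pair, at chr10:31318966-31318991 and chr10:31319119-31319148, ended 237 and 80 bases before theirs. All 3 ZEB1 boxes lay inside exons annotated at the locus in GENCODE 29. The CDH4 box, at chr20:61499393-61499420, ended 11 bases before a start that lies inside the gene, downstream of the start at 61252426 used by the transcript that held most CDH4 reads.
ZEB1 box 1: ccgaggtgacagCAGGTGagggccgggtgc
ZEB1 box 2: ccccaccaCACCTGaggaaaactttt
ZEB1 box 3: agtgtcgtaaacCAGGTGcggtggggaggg
CDH4 box: gggactggggtgCAGGTGtgcctggttc
The stretch before the TWIST2 start, at chr2:238847835-238848031 on the plus strand, is shown because TWIST2 was near the limit of detection in one line and well above it in the other, and held no CANNTG in its 197 bases. The window of the inner CDH2 start, at chr18:28036642-28036891 on the minus strand, is shown because the transcript that starts nearest to it, ENST00000399380, held most of the CDH2 TPM in every group. It held no CAGGTG or CACCTG and 1 CANNTG. Neither sequence has capitals, and no match says only that these letters are not in the window.
TWIST2: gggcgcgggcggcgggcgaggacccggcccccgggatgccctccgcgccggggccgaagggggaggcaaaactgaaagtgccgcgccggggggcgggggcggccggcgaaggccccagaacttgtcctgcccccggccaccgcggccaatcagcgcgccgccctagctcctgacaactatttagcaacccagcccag
CDH2: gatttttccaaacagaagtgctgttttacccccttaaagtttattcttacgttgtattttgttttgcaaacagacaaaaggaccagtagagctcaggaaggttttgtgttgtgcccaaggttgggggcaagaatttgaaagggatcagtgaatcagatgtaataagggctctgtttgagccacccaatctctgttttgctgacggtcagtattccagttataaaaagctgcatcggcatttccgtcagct

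TPM, which scales for transcript length, allowed the genes to be ranked within a line over its 9 samples. In U87 mg the order by median TPM was ZEB2 (75.3), SNAI2 (66.2), CDH2 (49.9), ZEB1 (20.6), TWIST1 (11.1), CDH11 (3.88), SNAI1 (1.62), CDH4 (1.56), TWIST2 (0.731) and CDH6 (0.0366). The ranges of ZEB2, SNAI2 and CDH2 overlapped from neighbour to neighbour, and those of CDH2 and ZEB1, and of ZEB1 and TWIST1, did not. CDH11 reached 7.73 TPM in its highest sample and TWIST1 was at 7.34 in its lowest, so these ranges just met, and CDH11, SNAI1, CDH4 and TWIST2 again overlapped from neighbour to neighbour, all above CDH6. In DAOY the order was SNAI2 (152.6), CDH2 (96.8), CDH11 (66.7), ZEB2 (48.8), ZEB1 (24.4), TWIST1 (20.3), TWIST2 (13.4), SNAI1 (11.4), CDH4 (0.558) and CDH6 (0.20). Here ZEB2 stood clear of ZEB1 and SNAI1 clear of CDH4, and every other pair of neighbours overlapped.

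Within each family, 1 member held most of the TPM in U87 mg, and its median share was lower in DAOY. CDH2 made up 84.5% to 92.8% of the summed TPM of the 4 cadherins in U87 mg and 53.6% to 79.3% in DAOY, where CDH11 made up 20.4% to 45.7%. SNAI2 held 95.1% to 99.4% of the SNAI pair in U87 mg and 89.1% to 97.5% in DAOY. TWIST1 held 89.9% to 95.9% of the TWIST pair in U87 mg and 46.3% to 67.6% in DAOY. The ratio of ZEB2 to ZEB1 was 2.72 to 5.28 in U87 mg, with a median of 3.28, and 1.82 to 2.72 in DAOY, with a median of 2.17. These shares are descriptions over samples of all 3 exposures and were not tested.

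**Figure D1:**
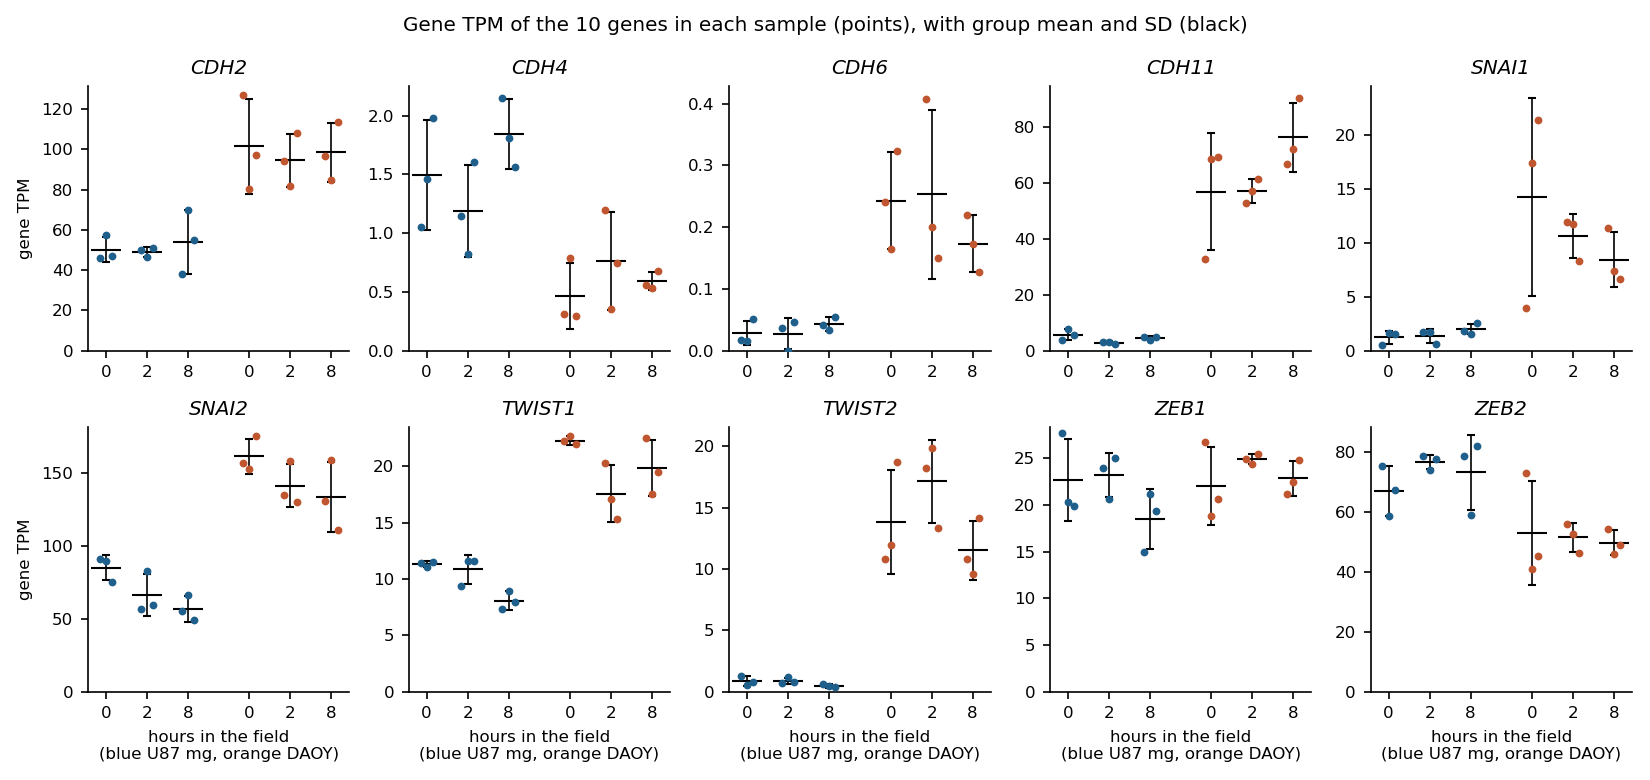
Gene TPM of the 10 genes in each of the 18 samples (points, 3 per group; vertical axes linear from 0 and scaled per gene), by hours in the field, with U87 mg in blue, DAOY in orange, and group mean and SD in black. CDH2, CDH11, SNAI1, SNAI2, TWIST1, TWIST2 and CDH6, which was not tested, lie higher in every DAOY sample than in any U87 mg sample, ZEB1 and ZEB2 overlap between the lines, and DAOY 0 h replicate 0 lies far below its group in SNAI1 and CDH11.

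The first question was whether time in the dcEF changed these genes within a line. Genes were called at a false discovery rate (FDR) below 0.05 and a fold of at least 2, with edgeR's quasi-likelihood test on gene sums and Benjamini-Hochberg adjustment over all genes tested. None of the 10 genes was called at 2 h or 8 h in either line. In U87 mg, 8 of the 10 passed the filter on low counts, with CDH6 and TWIST2 left out. At 2 h, 0 of 8 were called (0% of 14106 genes), and at 8 h, 0 of 8 (0.638% of all genes). In DAOY, 9 of the 10 passed the filter, with CDH6 left out. At 2 h, 0 of 9 were called (0% of 15396 genes), and at 8 h, 0 of 9 (3.13%). With FDR alone, the members' counts were again 0, against 1.72% of genes in U87 mg and 5.85% in DAOY at 8 h. At an unadjusted p below 0.05, 1 and 2 of 8 members were found at 2 h and 8 h in U87 mg and 1 and 1 of 9 in DAOY, where at 8 h 2241 of the 14106 genes in U87 mg and 3502 of the 15396 in DAOY were below it too. DESeq2 called 0 members in all 4 comparisons. The median log2 fold change of the members tested was -0.07 and -0.04 in U87 mg at 2 h and 8 h, where the median over all genes was -0.02 and 0.00, and -0.07 and -0.15 in DAOY, where it was 0.00 and -0.01. At 2 h no gene of the whole table was called in either line, with 1239 genes in U87 mg and 424 in DAOY at an unadjusted p below 0.05, and 2 and 1 called by DESeq2. When replicate 0 of the U87 mg 0 h group was left out, 71 genes passed at 2 h in that line, and 0 of them were members.

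Among the cadherins, CDH2 was the steadiest. In U87 mg its TPM was 45.9, 57.5 and 47.2 at 0 h, 49.9, 46.3 and 51.0 at 2 h, and 38.0, 69.8 and 54.8 at 8 h. In DAOY it was 127, 80.3 and 97.4 at 0 h, 94.0, 81.6 and 108 at 2 h, and 96.8, 84.9 and 114 at 8 h. The exposures overlapped in both lines. The 95% confidence interval of the 8 h log2 fold change of CDH2 ran from -0.22 to 0.45 in U87 mg and from -0.16 to 0.54 in DAOY, so a fold of 2 in either direction lay outside both.

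CDH11, the cadherin first known from osteoblasts and common in mesenchymal cells, was at 32.6, 68.5 and 69.4 TPM in DAOY at 0 h, 52.9, 57.2 and 61.2 at 2 h, and 66.7, 72.0 and 90.2 at 8 h. The 0 h and 8 h values overlapped. Its log2 fold change at 8 h was 0.39 ± 0.15 (SE), with an adjusted p of 0.140 by edgeR, and without replicate 0 of DAOY at 0 h it was 0.37. In U87 mg, CDH11 was at 3.76, 7.73 and 5.43 TPM at 0 h, 3.12, 3.17 and 2.31 at 2 h, and 4.76, 3.88 and 4.93 at 8 h. All 3 samples at 2 h were below all 3 at 0 h in TPM, but the log2 fold change in counts was -0.29 ± 0.19 with an adjusted p of 0.506. On the scale of log2(TPM + 1), limma gave -0.74 with an adjusted p of 0.560. A short CDH11 transcript of 436 bases, ENST00000569095, was at 0.00, 3.11 and 1.34 TPM in the 0 h samples and at most 0.556 TPM at 2 h. The longer coding transcript ENST00000566827 was at 1.91 ± 0.402 TPM (SD) at 0 h and 0.800 ± 0.336 at 2 h. Why the changes in TPM and in counts differed in size was not tested.

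CDH4 and CDH6 were near the limit of detection. CDH4 was at 0.820 to 2.15 TPM in U87 mg and 0.295 to 1.19 in DAOY, with 8 to 48 estimated counts in a DAOY library, and its intervals were the widest among the cadherins: from -0.65 to 1.72 on the log2 scale for DAOY at 8 h. CDH6 never exceeded 0.0545 TPM in U87 mg or 0.408 TPM in DAOY and was tested in no comparison.

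SNAI2, the SNAI factor with by far the higher level in both lines, gave the lowest adjusted p of the 8 genes tested in U87 mg. Its TPM there was 90.7, 89.3 and 75.1 at 0 h, 57.0, 82.8 and 59.3 at 2 h, and 55.5, 66.2 and 48.8 at 8 h. Every 8 h sample was below every 0 h sample, and the 2 h samples overlapped both. The log2 fold change was -0.38 ± 0.15 at 2 h (adjusted p = 0.495) and -0.51 ± 0.15 at 8 h (adjusted p = 0.123), both by edgeR and neither past the threshold. Over the alternatives run, the adjusted p at 8 h ranged from 0.0367 to 0.470, and the change never reached a fold of 2. In DAOY, SNAI2 was at 157, 153 and 175 TPM at 0 h, 135, 158 and 130 at 2 h, and 131, 159 and 111 at 8 h, with a log2 fold change at 8 h of -0.20 ± 0.17 (adjusted p = 0.540) and overlapping groups.

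SNAI1, the other factor of the family and a short-lived protein in many cells, was low in U87 mg, at 0.555, 1.62 and 1.55 TPM at 0 h, 1.73, 1.68 and 0.629 at 2 h, and 1.85, 1.58 and 2.52 at 8 h. In DAOY it was at 3.94, 17.4 and 21.4 TPM at 0 h, 11.9, 11.8 and 8.30 at 2 h, and 11.4, 7.38 and 6.63 at 8 h. Replicate 0 at 0 h was the lowest of all 9 DAOY samples, and the other two at 0 h were above all 6 exposed samples. The log2 fold change at 8 h was -0.63 ± 0.45 (adjusted p = 0.453 by edgeR), and without that replicate it was -1.05 (adjusted p = 0.0522, the lowest of a range up to 0.834 over the alternatives). The source of the low value was not tested.

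TWIST1, a factor of neural crest and mesoderm, was at 11.4, 11.1 and 11.5 TPM in U87 mg at 0 h, 9.34, 11.6 and 11.6 at 2 h, and 7.34, 8.96 and 7.91 at 8 h. The 8 h samples were all below the 0 h samples. Its log2 fold change at 8 h was -0.40 ± 0.17, with an adjusted p of 0.283 by edgeR. In DAOY it was at 22.2, 22.7 and 21.9 TPM at 0 h, 20.3, 17.1 and 15.3 at 2 h, and 22.5, 17.5 and 19.5 at 8 h. There the 2 h samples were all below the 0 h samples and the 8 h samples overlapped them, with log2 fold changes of -0.42 ± 0.18 at 2 h (adjusted p = 0.999) and -0.15 ± 0.18 at 8 h (adjusted p = 0.675).

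TWIST2, its close relative, was at 10.9, 12 and 18.7 TPM in DAOY at 0 h, 18.2, 19.9 and 13.4 at 2 h, and 10.8, 9.60 and 14.2 at 8 h. The 3 groups overlapped, and the log2 fold change was 0.29 ± 0.26 at 2 h and -0.18 ± 0.26 at 8 h. In U87 mg it stood between 0.342 and 1.28 TPM, 3 to 11 estimated counts in a library, and was not tested.

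ZEB1 and ZEB2 are large repressors that share their zinc fingers and bind the same E-boxes. ZEB2 was at 75.3, 58.6 and 67.3 TPM in U87 mg at 0 h, 78.6, 74.1 and 77.6 at 2 h, and 78.7, 58.9 and 82.2 at 8 h. In DAOY it was at 72.9, 40.8 and 45.3 TPM at 0 h, 55.9, 52.5 and 46.2 at 2 h, and 54.3, 46.1 and 48.8 at 8 h. Groups overlapped in both lines, and replicate 0 was the highest DAOY sample. Its log2 fold change at 8 h in DAOY was -0.20 ± 0.26, and 0.26 without that replicate (adjusted p = 0.234, in a range up to 0.935), so the sign rested on 1 library.

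ZEB1 stayed between 14.9 and 27.7 TPM in all 18 samples. Its log2 fold change at 8 h was -0.33 ± 0.17 in U87 mg (adjusted p = 0.363) and 0.10 ± 0.22 in DAOY (adjusted p = 0.839), by edgeR, with overlapping groups in both. The antisense gene ZEB1-AS1 was at 0.916 to 5.16 TPM, and the ZEB2 relatives ZEB2-AS1 and ZEB2P1 were at most 1.5 and 1.3 TPM. The library kit kept strand, but whether it was used in the quantification was not stated, so reads shared with these genes cannot be told apart.

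**Figure D2:**
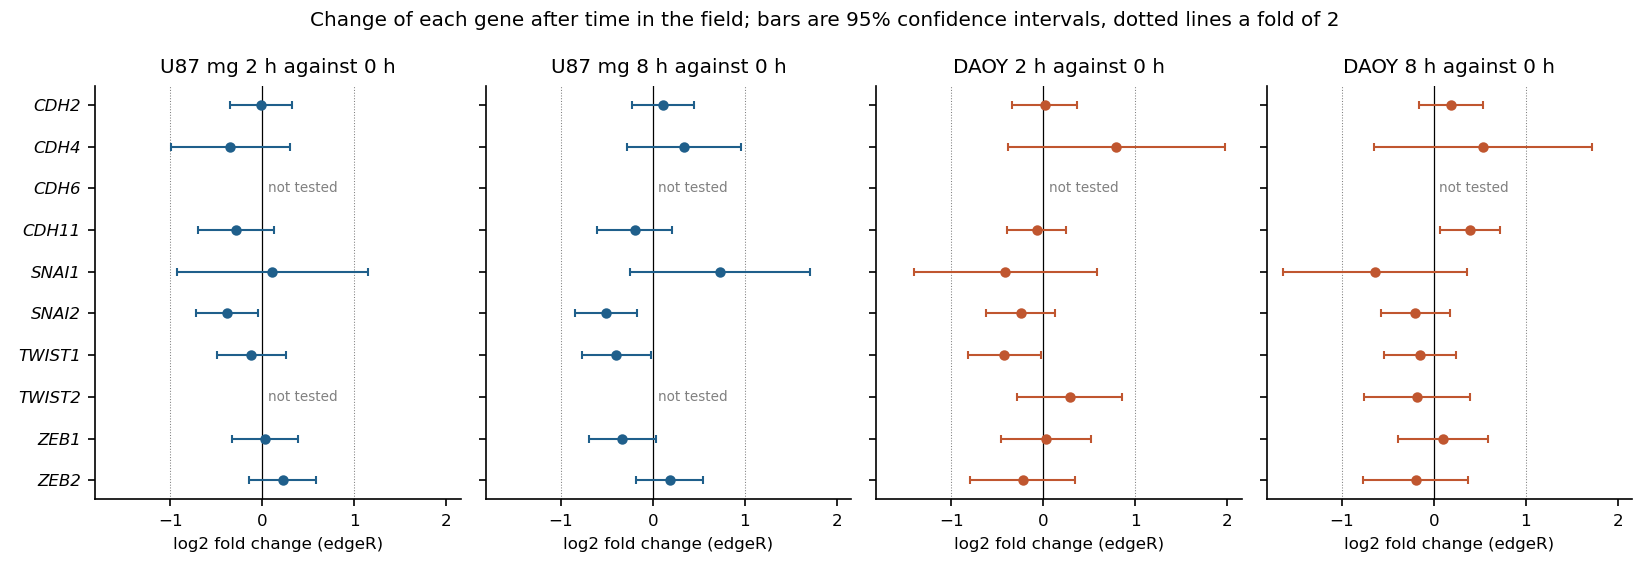
Log2 fold change of each gene after 2 h or 8 h in the field against 0 h in the same line (points, edgeR; horizontal bars, 95% confidence interval; dotted lines, a fold of 2), in U87 mg (blue) and DAOY (orange). The intervals lie below 0 for SNAI2 in U87 mg at both times, and for TWIST1 in U87 mg at 8 h and DAOY at 2 h. That of CDH11 in DAOY at 8 h lies above 0. None of the 10 genes passed the adjusted threshold, and the widest intervals belong to CDH4 and SNAI1.

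Whether the lines differed in their 8 h change was tested as an interaction over all 18 samples, called on FDR alone. Of 9 members tested, 0 differed by edgeR (0.0121% of 16482 genes), 1 had an unadjusted p below 0.05 (1463 of all genes did), and DESeq2 called 0. That gene was CDH11, whose 8 h change was higher in DAOY than in U87 mg, a difference in log2 fold change of 0.60 ± 0.20 (edgeR, adjusted p = 0.314). The estimate for SNAI1 was -1.35 ± 0.67 (adjusted p = 0.589), with an interval from -2.75 to 0.05. The remaining 7 estimates lay between -0.38 for ZEB2 and 0.62 for TWIST2.

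The second question was how the lines compared before the field was applied. At 0 h, 4 of the 9 members tested were called, or 44.4%, against 41.2% of all 16482 genes, so the share of members was near the background of a comparison in which a large part of the table differed. Of the 9, 3 were higher in DAOY (23.4% of all genes were) and 1 was lower (17.8%). With FDR alone, 7 of 9 passed, against 60.7% of genes. In bulk samples, more cells that express a gene and more RNA per cell cannot be told apart.

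TWIST2 did not pass the count filter among the U87 mg samples and entered this fit only through DAOY, where it was high, so its call, its size and its place among the 3 higher members are a description. It was at 13.8 ± 4.24 TPM in DAOY (SD, n = 3) and 0.862 ± 0.383 in U87 mg, which the count model put at a 14.9-fold higher level (log2 fold change 3.90 ± 0.34, adjusted p = 2.56e-08 by edgeR). CDH11 was 12.9-fold higher in DAOY (3.68 ± 0.15, adjusted p = 6.45e-12), at 56.8 ± 21.0 against 5.64 ± 1.99 TPM. SNAI1 was 10.2-fold higher (3.36 ± 0.49, adjusted p = 1.33e-05), at 14.3 ± 9.17 against 1.24 ± 0.595 TPM, and the difference was 3.77 without the low replicate of DAOY. CDH4 was lower in DAOY, its log2 fold change being -1.86 ± 0.44 (adjusted p = 0.00136), at 0.466 ± 0.282 against 1.5 ± 0.467 TPM. This call was lost with limma on log2(TPM + 1), at -0.77 (adjusted p = 0.00438) and short of a fold of 2, and without replicate 1 of DAOY at 0 h the edgeR value was -2.63.

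TWIST1, SNAI2 and CDH2 passed the FDR but missed a fold of 2 in the count model. By edgeR, TWIST1 had a log2 fold change of 0.91 ± 0.15 (adjusted p = 6.19e-05), SNAI2 by 0.85 ± 0.17 (adjusted p = 0.000304) and CDH2 by 0.79 ± 0.17 (adjusted p = 0.000483), all higher in DAOY. Their TPM did not overlap between the lines at 0 h or over all 18 samples, where 36% of the 16482 genes did not overlap either. The share of all genes at 0 h alone was not computed, so this is a description.

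ZEB1 and ZEB2 did not pass either threshold at 0 h. ZEB1 was at 22 ± 4.17 TPM in DAOY and 22.6 ± 4.37 in U87 mg (log2 fold change -0.15, interval -0.60 to 0.31). ZEB2 was at 53.0 ± 17.4 and 67.1 ± 8.35 TPM (-0.33, interval -0.84 to 0.17), and without replicate 0 of DAOY it differed by -0.80 with an adjusted p of 0.000801 (up to 0.626 over the alternatives), still short of a fold of 2.

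The line comparison was repeated at 2 h and 8 h within the same fit, a choice made after seeing the data. CDH11, TWIST2 and SNAI1 were called at each exposure, with log2 fold changes of 3.88, 4.13 and 2.82 at 2 h and 4.28, 4.52 and 2.00 at 8 h. CDH4 was called at 8 h (-1.67, adjusted p = 0.00255) but not at 2 h (-0.75, adjusted p = 0.137). SNAI2 and TWIST1 were past a fold of 2 at 8 h, at 1.16 and 1.17, and CDH2 was at 0.87. ZEB2 passed the FDR at 2 h (-0.80, adjusted p = 0.00806) and at 8 h (-0.71, adjusted p = 0.0166), lower in DAOY and short of a fold of 2, and ZEB1 passed at neither. Over all 18 samples, 6 of the 9 tested members had no overlap in TPM between the lines, against 36% of genes: CDH2, CDH11, SNAI1, SNAI2, TWIST1 and TWIST2. The calls of TWIST2 and its place among these 6 are a description, since it entered the fit only through DAOY.

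**Figure D3:**
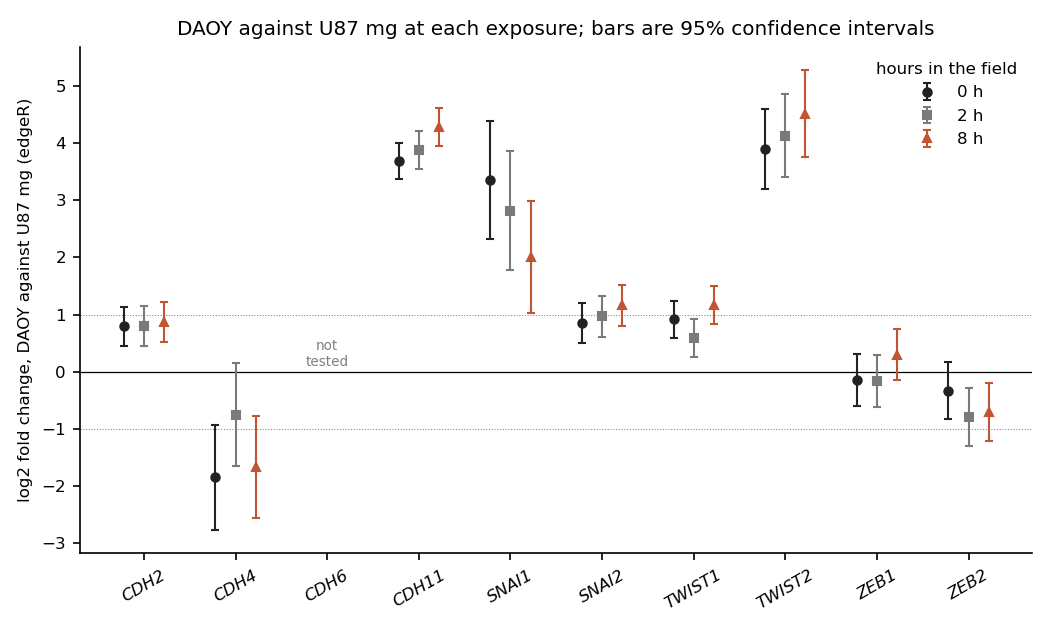
Log2 fold change of DAOY against U87 mg (vertical axis, edgeR; bars, 95% confidence interval; dotted lines, a fold of 2) for each gene at 0 h (black circles), 2 h (grey squares) and 8 h (orange triangles) in the field. CDH11 and TWIST2 stand above 3.5 at each exposure, SNAI1 is at 3.36 at 0 h and 2.00 at 8 h with overlapping intervals, CDH2, SNAI2 and TWIST1 lie between 0.59 and 1.17, and ZEB1 lies around 0.

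At the level of transcripts, which the estimated counts resolve less surely than genes, edgeR's calls among the members numbered 0 of 23 at each exposure of U87 mg and 0 of 24 at each exposure of DAOY, where edgeR called 0% of 40613 and of 41336 transcripts. At an unadjusted p below 0.05, 1 and 2 member transcripts were found in U87 mg and 2 and 3 in DAOY at 2 h and 8 h, beside 2257 and 2559 of all transcripts in U87 mg and 1269 and 4276 in DAOY. DESeq2 called 349 and 430 transcripts of the whole table in U87 mg and 174 and 948 in DAOY, among them 1 of the members, in DAOY at 8 h. That transcript was ENST00000627532 of ZEB2, the longest of the gene at 9541 bases, on chromosome 2 from 144384081 to 144520395. In DAOY it was at 4.24, 2.83 and 3.10 TPM at 0 h, 1.95, 2.43 and 1.92 at 2 h, and 1.42, 1.20 and 0.948 at 8 h. All 3 samples at 8 h were below all at 2 h, which were below all at 0 h. Its log2 fold change at 8 h was -1.52 ± 0.31 by edgeR (adjusted p = 0.172) and -1.54 by DESeq2 (adjusted p = 0.00499). In U87 mg it was at 5.39, 4.97 and 5.77 TPM at 0 h, 5.47, 6.32 and 6.78 at 2 h, and 3.03, 3.78 and 4.21 at 8 h, with a log2 fold change at 8 h of -0.51 ± 0.17 (adjusted p = 0.619 by edgeR). It made up 6.53% of the ZEB2 TPM in DAOY at 0 h and 2.38% at 8 h, and the main transcript, ENST00000409487 of 5361 bases, made up 83.0% and 76.0%.

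Between the lines at 0 h, 7 of 28 member transcripts were called, or 25%, against 15.7% of 50895 transcripts. These were the single SNAI1 transcript, the main transcripts of TWIST2 (ENST00000612363) and CDH4 (ENST00000614565), and 4 of CDH11. The TWIST2 transcript and ENST00000394156 and ENST00000619158 of CDH11 did not pass the count filter among the U87 mg samples. They entered this fit only through DAOY, where they were high, so their calls and the share of 25% are a description. Of the CDH11 transcripts, ENST00000566827 was at 19.9 ± 10.2 TPM in DAOY and 1.91 ± 0.402 in U87 mg, ENST00000268603 at 15.4 ± 3.01 and 1.28 ± 0.0820, and ENST00000619158 at 2.39 ± 0.371 and 0.362 ± 0.160. The other, ENST00000394156, was at 4.37, 4.90 and 8.28 TPM in DAOY and listed at 0 in the 3 U87 mg samples.

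Most of the CDH2 TPM was assigned to a transcript with an inner start in both lines, and the use of the starts was not tested. ENST00000399380, which begins at position 28036585 of chromosome 18, held 57.7% to 64.1% of the CDH2 TPM in the DAOY groups and 58.7% to 65.2% in the U87 mg groups. ENST00000269141, which begins at the outer start at 28177446, held 15.0% to 19.5% and 16.6% to 21.4%. ENST00000399380 and ENST00000269141 differed between the lines by nearly the same amount, 0.80 ± 0.17 and 0.81 ± 0.27 on the log2 scale. A short transcript of 563 bases, ENST00000413878, begins upstream of the inner start, at 28159297. It held 17.7% to 23.9% of the CDH2 TPM in the DAOY groups and 16.2% to 22.3% in the U87 mg groups. Another short CDH2 transcript, ENST00000430882 of 610 bases, was at 12.9 TPM in replicate 0 of DAOY at 0 h and listed at 0 in the other 17 samples.

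ZEB1 was read mostly as ENST00000320985, at 15.4 ± 2.08 TPM in DAOY and 16.5 ± 3.37 in U87 mg at 0 h. A shorter coding transcript, ENST00000542815, was at 7.41, 4.07 and 3.61 TPM in DAOY at 0 h and at 4.04, 1.89 and 0.00 in U87 mg. Its log2 fold change between the lines was 1.37 ± 1.2 with an adjusted p of 0.504 in edgeR, with the groups overlapping. TWIST1 and SNAI2 were each read almost wholly as 1 transcript, ENST00000242261 (93.2% to 98.5% of TPM by group) and ENST00000020945 (95.9% to 99.0%).

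**Figure D4:**
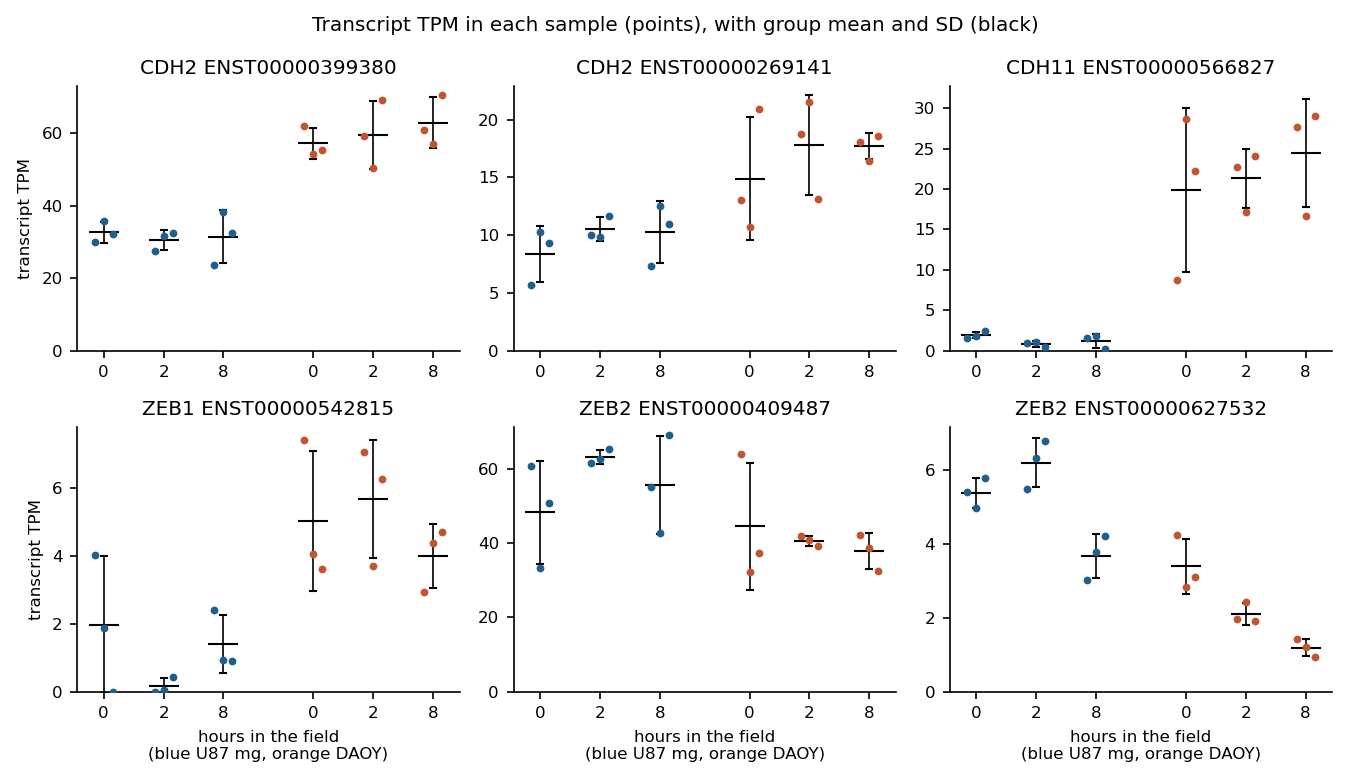
Transcript TPM in each sample (points; vertical axes linear from 0 and scaled per transcript) by hours in the field, with U87 mg in blue, DAOY in orange, and group mean and SD in black, for a pair of CDH2 transcripts, 1 of CDH11, 1 of ZEB1 and 2 of ZEB2. ENST00000627532 of ZEB2 has a mean of 3.39 TPM at 0 h and 1.19 at 8 h in DAOY with no overlap of the points, while ENST00000409487 overlaps between the exposures in DAOY.

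The genes around these 10 were taken from 6 lists of 87 names, 85 of them in the table. In the field, 1 gene of the lists was called: OCLN, the tight junction protein occludin, rose 2.14-fold in DAOY at 8 h (1.1 ± 0.22 on the log2 scale, adjusted p = 0.0214), from 15.5 ± 1.55 to 33.2 ± 9.19 TPM. Of all genes, 3.13% were called in DAOY at 8 h. OCLN was 1 of 6 epithelial markers tested there, whose median log2 fold change was 0.63 where that of all genes was -0.01. Neither keratin of the list was called: KRT18 was at 135 ± 56.0 TPM at 0 h and 213 ± 34.1 at 8 h, and KRT8 at 31.3 ± 11.4 and 24.5 ± 3.36. CTNNA1, the alpha-catenin that ties cadherins to actin, passed the FDR in DAOY at 8 h at 0.64 ± 0.16 (adjusted p = 0.0493 by edgeR) without reaching a fold of 2. There 5.85% of all genes passed the FDR. No other listed gene was called at 2 h or 8 h in either line. Among genes that were not called, FN1 was at 6042 ± 2391 and 5331 ± 859 TPM in DAOY at 0 h and 8 h, TCF12 at 50.8 ± 5.15 and 59.2 ± 0.549, and HDAC2 at 347 ± 51.5 and 332 ± 27.3. In U87 mg at 0 h and 8 h, TJP1, a tight junction scaffold, was at 37.8 ± 0.940 and 46.4 ± 6.59 TPM, CTNNA1 at 386 ± 62.0 and 402 ± 44.1, and CDH13 at 202 ± 20.2 and 211 ± 24.9, none called. In the interaction, 0 listed genes were called.

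CDH1 was near 0 in both lines, at most 0.370 TPM in U87 mg and 0.419 in DAOY over all exposures. The lists were then compared between the lines at 0 h, where 23.4% of all genes were higher in DAOY and 17.8% lower. Some listed genes passed the count filter in a single line, among them JUP, CTNNA2, DSP, KRT18, COL3A1, CDH7, CDH12 and CDH18. They entered this fit only through the line where they were high. Their calls are a description, as are the list counts and medians that hold them. Among the other cadherins, 2 of 5 tested were higher in DAOY and 3 lower. CDH18 was at 5.39 ± 2.39 TPM in DAOY and 0.950 ± 0.0535 in U87 mg, CDH12 at 0.857 ± 0.254 and 0.0358 ± 0.0620, and CDH7 at 0.0819 ± 0.0870 and 2.64 ± 1.19. CDH13, an atypical cadherin held by a lipid anchor, had the highest level of these other cadherins, with 181 to 238 TPM in the U87 mg samples and 16.9 to 40.8 in the DAOY samples. Among 9 catenins and cadherin partners tested, 2 were higher and 1 lower in DAOY. JUP, the plakoglobin of desmosomes and adherens junctions, was at 51.6 ± 16.8 TPM in DAOY and 0.212 ± 0.104 in U87 mg. CTNND2, a delta-catenin, was at 8.41 ± 3.62 and 1.59 ± 0.261, and CTNNA2, the neural alpha-catenin, at 0.0168 ± 0.0290 and 2.36 ± 0.140.

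Of 10 other transcription factors tied to the transition, 4 were higher in DAOY and 1 lower, against 23.4% and 17.8% of all genes. SOX4 differed most, at 26.7 ± 2.80 TPM in DAOY against 0.546 ± 0.186 in U87 mg, and FOXC1 was at 11.6 ± 0.844 against 2.55 ± 0.624. The lower one, named after its values were seen, was PRRX1, a homeobox factor of limb and craniofacial mesenchyme, at 26.9 ± 14.7 against 73.0 ± 5.31 TPM. Of 14 mesenchymal markers, 5 were higher and 4 lower, with COL3A1 at 837 ± 404 TPM in DAOY and 0.316 ± 0.0660 in U87 mg, S100A4 at 89.5 ± 43.1 and 6.10 ± 3.52, and COL1A1 at 509 ± 246 and 61.0 ± 38.2. Of 18 epithelial markers listed, 7 were tested here, against 4 in the fit of U87 mg, and 4 were higher and 1 lower. The desmosomal plaque protein DSP was at 118 ± 26.0 TPM in DAOY and 0.0154 ± 0.00438 in U87 mg, and the keratins KRT18 and KRT8 were at 135 ± 56.0 against 0.601 ± 0.210 and 31.3 ± 11.4 against 2.59 ± 0.656. DSP, KRT18 and COL3A1 had at most 1, 5.66 and 25 estimated counts in a U87 mg library and entered the fit only through DAOY. Of 18 corepressors and turnover factors of the SNAI, TWIST and ZEB proteins, 1 was higher in DAOY and 1 lower. ID3, which binds the partners of TWIST factors, was at 63.3 ± 42.2 and 12.8 ± 11.3 TPM, and LOXL2, a lysyl oxidase-like enzyme that acts with SNAI1, at 35.5 ± 13.1 and 130 ± 54.7. The median log2 fold change of the lists was -1.30 for other cadherins, 0.30 for catenins, 0.27 for other factors, 0.07 for mesenchymal markers, 2.83 for epithelial markers and 0.26 for corepressors, where that of all genes was 0.05.

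Genes whose pattern over the 18 samples was most like that of the highest member of each family were found by Pearson's r of log2 CPM (counts scaled to library size), given as a description, since the points share a line and a library and r is set in part by the difference between the lines. For CDH2 they were SERPINE2 (r = 0.963), SERBP1 (0.958) and ICK (0.957). For TWIST1 they were MAP10 (0.969), CH25H (0.964) and FUT4 (0.963), and within the 9 U87 mg and the 9 DAOY samples MAP10 gave 0.957 and 0.752. For ZEB2 they were SREK1IP1 (0.952), ZDHHC21 (0.936) and ACSL4 (0.932), with 0.920 and 0.882 within the lines for SREK1IP1. For SNAI2 they were a gene listed under the clone name RP11-631N16 (0.955), MAP3K1 (0.944) and CCDC102B (0.940), and the last pair were at 0.543 and 0.544 within DAOY.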

How the data were processed

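RNA-SEQ libraries (stranded poly-A kit, single-end reads) were made from 18 samples, and the best 3 biological replicates by quality control had been kept per group. For DAOY at 8 h only 3 were available, since the RNA of another was poor. The authors trimmed reads with the FASTQC Toolkit 2.0.0 and ran Kallisto 0.43.0 on GENCODE transcripts (GRCh38.p5 in the submitters' processing notes); the use of strand was not given in the sources used here. The deposited table holds Kallisto's estimated counts and TPM per transcript and sample, with fractions in 85.7% of its non-zero counts (tolerance 0.001). Its columns of Sleuth comparisons (fold changes, p-values and q-values) were not used.

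Estimated counts were summed by the table's gene name and rounded. Genes passing filterByExpr were tested with edgeR 4.0.16 (quasi-likelihood, TMM), in 9-sample fits per line for time and an 18-sample fit for line and interaction, and called at an FDR below 0.05 and a fold of 2, the interaction at the FDR alone. Transcripts were tested the same way. The scripts were tested on simulated data. DESeq2 1.42.0 and limma 3.58.1 (log2(TPM + 1), pseudocount 1) served as alternatives in R 4.3.3. Depth was 8341976 to 15610886 counts, and edgeR's biological coefficient of variation came to 0.18 (U87 mg) and 0.256 (DAOY). TPM of a gene is the sum over its transcripts. P-values set the differences between groups against the spread between the replicates.

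The 10 genes and the lists were chosen with earlier results of these data known. All 10 are named in every comparison, with the transcripts at 1 TPM or more in a group that bear on a result, up to 3 called genes per list or else the listed gene of highest TPM, and the 3 genes most like the highest member of each family. CDH9 and AFDN of the lists had no match. The values of 1 listed gene are not reported here.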

Additional observations from a re-analysis of the deposited data

How the results depend on the processing

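The members called in the field stayed at 0 in U87 mg and DAOY at 2 h and 8 h, and in the interaction, under every alternative run and with each replicate left out (range 0 to 0). For the lines at 0 h the 4 calls became 7 with FDR alone and 1 with at least 10 counts in every sample, a filter that left SNAI1, TWIST2 and CDH4 out of the test, and ranged from 4 to 4 with a replicate left out. Limma called 3, CDH4 falling short of a fold of 2. Member transcripts called ranged from 0 to 0 over time and from 5 to 8 between the lines with a replicate left out, and DESeq2 gave 1 in DAOY at 8 h. By the rule that every same-number pair correlate above 0.1, replicate numbers did not pair the 0 h samples with the 2 h or 8 h samples of a line, nor those of DAOY at 2 h and 8 h. They did pair U87 mg at 2 h and 8 h (0.332, 0.181 and 0.302, each the highest of its sample), groups not compared with each other here. Of all 18 pairs, 8 were above 0.1, from -0.25 to 0.54, and 7 were the highest. The replicate block left 0 members called over time and 4 between the lines, and 6 member transcripts in place of 7 between the lines. The causes were not tested.

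Signs turned only for values that were not called, given here as log2 fold changes. Of CDH2 in U87 mg at 2 h, DESeq2 gave 0.011 and RLE size factors 0.0075. With limma on TPM, CDH2 in DAOY was -0.086 at 2 h and -0.029 at 8 h, its interaction -0.10 and that of CDH4 -0.065, and in DAOY at 2 h CDH11 was 0.082 and ZEB2 0.0024. CDH2 in DAOY at 2 h was -0.015 with all 18 samples in one fit. ZEB1 between the lines was 0.30 at 8 h. With a replicate left out, CDH2 ran from -0.077 to 0.062 in U87 mg at 2 h, -0.0068 to 0.28 at 8 h, -0.12 to 0.17 in DAOY at 2 h and -0.085 to 0.24 in the interaction. SNAI1 in U87 mg at 2 h ran from -0.20 to 0.43. ZEB1 ran from -0.072 to 0.19 in U87 mg at 2 h, -0.15 to 0.33 in DAOY at 2 h, -0.065 to 0.39 at 8 h, and -0.45 to 0.034 between the lines. ZEB2 ran from -0.44 to 0.23 in DAOY at 2 h, -0.40 to 0.26 at 8 h and -0.60 to 0.096 in the interaction, the highest each time without replicate 0 of DAOY at 0 h. TWIST2 in DAOY at 8 h ran from -0.36 to 0.060, and the interaction of CDH4 from -0.090 to 0.94.

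Counts over all genes moved more. In U87 mg at 8 h the 90 genes became 233 without a filter, 54 with coding transcripts only, 58 with all 18 samples, 8 with limma and 0 with the 6 samples alone, and with a replicate left out ran from 0 (8 h replicate 2) through 5 and 33 (0 h replicates 2 and 1) to 136 (0 h replicate 0). In DAOY at 8 h the 482 became 302 with limma, 272 with coding transcripts only, 178 with the 6 samples alone and 732 with all 18, and ran from 31 and 75 (8 h replicates 1 and 2) through 268 and 304 (0 h replicate 2 and 8 h replicate 0) to 402. At 2 h the filter's removal gave 57 and 18 genes in place of 0 in U87 mg and DAOY, and leaving out U87 mg 0 h replicate 0 gave 71 in U87 mg, and in the interaction it gave 158 and DESeq2 82 in place of 2. Between the lines the 6786 became 3289 with at least 10 counts in every sample.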
